A study of Mus musculus with 8 samples.

Results

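The Z-disc is the plate at each end of a sarcomere, the contractile unit of striated muscle, where the thin actin filaments of neighboring sarcomeres overlap and are tied together. α-actinin rods cross-link the filaments, and titin is anchored there. A ring of smaller proteins joins this lattice to kinases, phosphatases, intermediate filaments and the cell membrane, and in heart muscle the Z-disc also senses stretch. Genes for 10 Z-disc proteins were followed here through their mRNAs, in the hearts of wild-type (WT) mouse embryos and of embryos labelled SIRT1 KO.

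The 10 genes were Actn2, Tcap, Csrp3, Ldb3, Myoz2, Nebl, Pdlim5, Flnc, Myot and Synpo2l, out of 19096 genes that could be named on the array. Every non-control probe whose accession belonged to one of them was kept, which gave 18 of the 41174 probes. Pdlim5 had 5 probes, Ldb3 and Flnc had 3 each, and the other genes had 1 each.

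The study asked how loss of SIRT1, an NAD-dependent deacetylase, affects the order of heart muscle cells late in development. RNA was taken from 4 WT hearts and 4 SIRT1 KO hearts at E18.5, shortly before birth, each hybridized to its own one-color Agilent array. Both groups were C57BL/6 embryos per the labels (C57BL/6J in the methods) on a chow diet with no treatment, and the methods describe a whole-body germ-line knockout, crosses of heterozygous parents and hearts of both sexes. The whole heart was used, so fewer cells of a type and less RNA per cell cannot be told apart. The 4 WT arrays share a slide and a scan day and the 4 SIRT1 KO arrays share another, so genotype, slide and scan day cannot be told apart.

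The targeted gene was examined first. On the brighter Sirt1 probe (A_52_P358612) the log2 signal, which is log2 of the processed intensity minus the 75th percentile of its array, was −0.15, 0.32, 0.00 and 0.01 in the WT hearts and 0.65, 0.50, 0.43 and 0.75 in the SIRT1 KO hearts. Every SIRT1 KO value lay above every WT value. The log2 fold change was 0.54 (standard error 0.12, limma adjusted p = 0.0332), and the adjusted p stayed under 0.05 in 2 of the 8 fits that left out a heart, those without WT replicate 2 or replicate 3 of the hearts labelled SIRT1 KO. It did not pass with median scaling, no scaling, no filter on dim probes or the methods' analysis of variance (adjusted p from 0.0616 to 0.117, log2 fold changes from 0.32 to 0.54). The other Sirt1 probe (A_51_P141152) gave −0.11 (standard error 0.11, limma adjusted p = 0.59). Neither probe was lower in a way that passed the test, and where on the transcript the probes lie is not given in the sources used here, so the group is called the hearts labelled SIRT1 KO.

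Between 24489 and 26733 probes per array were well above background, with the fewest for replicate 3 of the hearts labelled SIRT1 KO. No spot was saturated, and the number of arrays limits the precision. All 8 cardiomyocyte markers (Tnnt2, Actc1, Myh6, Tnnc1, Tpm1, Mybpc3, Ryr2 and Nkx2-5) were well above background on all 8 arrays, and 0 of the 5 lung markers reached the 4 arrays needed for a test. None of the 6 smooth muscle, 8 fibroblast, 6 endothelial, 6 macrophage and 4 tested erythroid markers passed. All 6 endothelial markers had a lower mean in the hearts labelled SIRT1 KO (median log2 fold change −0.12). A higher mean was found for 1 of 6 smooth muscle (median −0.13), 5 of 6 macrophage (median 0.12), 4 fibroblast and 2 erythroid markers. Of 13 skeletal muscle markers, 8 were tested and 7 of these had a higher mean in the hearts labelled SIRT1 KO, 2 of them past the threshold. Of 8 liver markers, 7 were tested and all 7 had a higher mean in the hearts labelled SIRT1 KO (median log2 fold change 1.32, from 0.91 to 1.47), and their summed linear signal ran from 10.8 to 26.8 times the 75th percentile in WT hearts and from 12.5 to 115 times in the hearts labelled SIRT1 KO, with 0 past the threshold.

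Across all genes, 1258 of 25615 tested probes (4.91%) had a limma adjusted p under 0.05, of which 1021 (3.99%) had the higher mean in the hearts labelled SIRT1 KO and 237 (0.925%) had the higher mean in WT hearts. All 18 Z-disc probes were well above background on all 8 arrays and were tested. A single one passed, a Flnc probe that was higher, so the members' share lay near the share of all probes. Of the 18 probes, 9 had a higher mean and 9 a lower one, with a median log2 fold change of −0.01 against 0.01 over all tested probes. An unadjusted limma p under 0.05 was found for 5 of the 18 probes and for 21.5% of all probes. The groups did not overlap on 3 of the 18 probes, one each of Ldb3, Nebl and Flnc, and on 13.7% of all probes. Taking the brightest probe of each gene, 0 of the 10 members passed at an adjusted p of 0.05 and 4 had an unadjusted p under 0.05 (20.3% of all genes), while 4.6% of all 13594 tested genes passed.

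**Figure D1:**
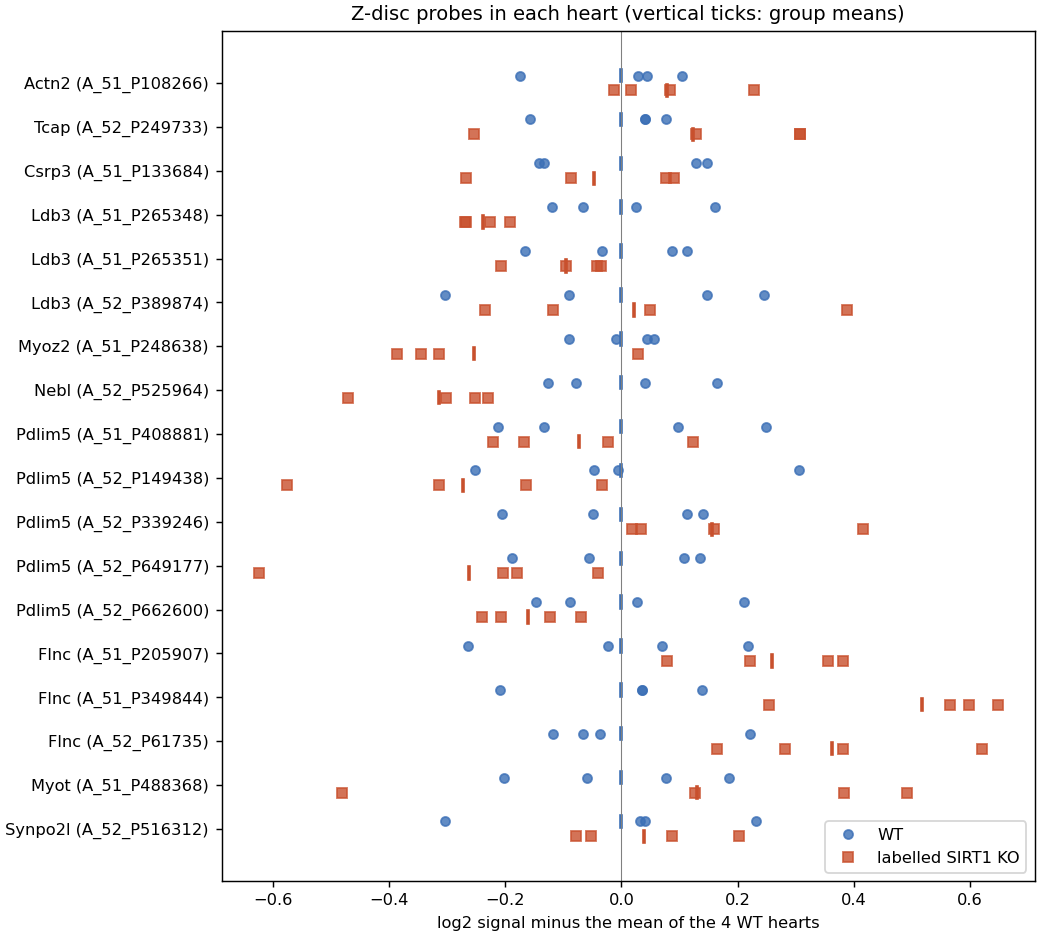
Log2 signal of each of the 18 Z-disc probes in every heart, minus the mean of the 4 WT hearts. Circles are WT hearts, squares are hearts labelled SIRT1 KO and vertical ticks are group means. The squares of all 3 Flnc probes lie to the right of zero, and those of Nebl and of Ldb3 probe A_51_P265348 lie to the left of every circle in their rows.

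Promoter sequences are shown for the 5 members whose brightest probes had the fold changes farthest from 0, Flnc above and Nebl, Pdlim5, Myoz2 and Ldb3 below. The RefSeq windows (GRCm38.p6) ran from 250 bases before to 50 after an annotated start, and member windows on a single chromosome were left out. Those kept held 8 of the 10 members in 16 windows, with none for Tcap and Myot. The first listed window of each gene is given 5′ to 3′ on the strand of the gene. The windows are chr6:29432903-29433202 (+) for Flnc, chr2:17670116-17670415 (−) for Nebl, chr3:142395647-142395946 (−) for Pdlim5, chr3:123034938-123035237 (−) for Myoz2 and chr14:34588632-34588931 (−) for Ldb3. Capitals mark matches to the binding motifs of muscle gene regulators, read on both strands: the MEF2 motif, the CArG box of serum response factor, the E-box of basic helix-loop-helix factors (CANNTG) and the M-CAT element of TEAD factors (CATTCC).
Flnc: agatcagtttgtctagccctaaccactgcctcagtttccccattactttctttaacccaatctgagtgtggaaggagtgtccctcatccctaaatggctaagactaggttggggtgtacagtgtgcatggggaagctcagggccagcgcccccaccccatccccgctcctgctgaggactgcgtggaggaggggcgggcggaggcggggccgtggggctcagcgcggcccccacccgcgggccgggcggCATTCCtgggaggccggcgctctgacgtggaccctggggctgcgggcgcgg
Nebl: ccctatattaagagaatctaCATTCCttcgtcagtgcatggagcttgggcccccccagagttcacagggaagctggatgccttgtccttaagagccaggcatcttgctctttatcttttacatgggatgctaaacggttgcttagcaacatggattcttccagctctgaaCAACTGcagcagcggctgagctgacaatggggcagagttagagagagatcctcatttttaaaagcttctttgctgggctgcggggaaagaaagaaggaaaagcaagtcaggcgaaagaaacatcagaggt
Pdlim5: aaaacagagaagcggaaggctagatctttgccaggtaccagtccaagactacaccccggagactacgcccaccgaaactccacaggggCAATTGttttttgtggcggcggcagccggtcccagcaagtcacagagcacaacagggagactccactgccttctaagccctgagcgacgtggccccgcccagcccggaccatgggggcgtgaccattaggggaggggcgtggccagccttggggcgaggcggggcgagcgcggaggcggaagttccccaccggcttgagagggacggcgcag
Myoz2: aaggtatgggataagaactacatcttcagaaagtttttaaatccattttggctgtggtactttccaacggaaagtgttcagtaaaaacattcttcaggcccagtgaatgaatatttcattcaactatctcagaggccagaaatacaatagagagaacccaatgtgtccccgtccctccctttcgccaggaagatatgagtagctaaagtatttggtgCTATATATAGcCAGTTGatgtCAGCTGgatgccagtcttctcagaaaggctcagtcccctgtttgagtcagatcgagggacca
Ldb3: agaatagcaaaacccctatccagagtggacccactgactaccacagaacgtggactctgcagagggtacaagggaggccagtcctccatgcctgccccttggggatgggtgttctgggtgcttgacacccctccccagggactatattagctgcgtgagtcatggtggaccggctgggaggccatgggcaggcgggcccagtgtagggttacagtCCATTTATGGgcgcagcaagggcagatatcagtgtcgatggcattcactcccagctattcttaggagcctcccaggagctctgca

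The Flnc window held an M-CAT match next to its start. Nebl held an M-CAT match and an E-box, Pdlim5 an E-box, Myoz2 a MEF2 match followed by a pair of E-boxes, and Ldb3 a CArG match that begins at position −35 from its start. No capitalized matches overlapped in these windows. Over the 16 member windows kept, MEF2 matches were found in 3, CArG matches in 3, E-boxes in 10 and M-CAT matches in 3. The shares among all 32851 windows were 3.19% for MEF2, 1.63% for CArG, 72.3% for the E-box and 14.7% for M-CAT. No chromosome was left out of those shares. Windows of one gene can share sequence, so they are not independent. A match is a description of letters and not a binding site.

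Flnc encodes filamin C, the muscle filamin, which cross-links actin and ties the Z-disc to the membrane. Its 3 probes all had a higher mean in the hearts labelled SIRT1 KO, and the dimmest passed the test. On that probe (A_51_P349844) the log2 signal was −3.17, −3.42, −3.07 and −3.17 in the WT hearts and −2.61, −2.56, −2.95 and −2.64 in the hearts labelled SIRT1 KO. The groups did not overlap, and replicate 3 of the hearts labelled SIRT1 KO lay closest to the WT values. The mean was −3.21 ± 0.15 (SD, n = 4) against −2.69 ± 0.18 (SD, n = 4), a 1.43-fold rise. On the log2 scale this is 0.52 with a standard error of 0.11 (limma adjusted p = 0.0338). The adjusted p stayed under 0.05 in 1 of the 8 fits that left out a heart, the one without replicate 3 of the hearts labelled SIRT1 KO, and the fold change ran from 0.45 to 0.60 over the 8. Of all 17 alternative settings, 13 left this probe above 0 without passing, among them quantile normalization and median scaling.

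The brightest Flnc probe (A_52_P61735) had log2 signals of 4.06, 4.09, 4.01 and 4.35 in the WT hearts and 4.74, 4.51, 4.29 and 4.41 in the hearts labelled SIRT1 KO. The groups overlapped through a single pair, with WT replicate 4 above replicate 3 of the other group. The log2 fold change was 0.36 (95% interval 0.10 to 0.63, limma adjusted p = 0.121). On the remaining probe (A_51_P205907) the log2 signals were 1.91, 1.58, 1.82 and 2.06 in WT hearts and 2.22, 2.06, 1.92 and 2.20 in the hearts labelled SIRT1 KO. Here too the groups overlapped, and the log2 fold change of 0.26 (standard error 0.12, limma adjusted p = 0.241) did not pass. In the same hearts, the skeletal muscle markers Tnni2 (log2 fold change 0.62, limma adjusted p = 0.022) and Myog (0.51, limma adjusted p = 0.0304) were higher, and passed in 4 and 3 of the 8 fits that left out a heart. Among WT hearts, 3 of 4 had Myog well above background. Its probe is dim, with a mean log2 signal of −5.45 in WT hearts and −4.94 in the hearts labelled SIRT1 KO. Tnnt3 of the same list gave −0.36 (limma adjusted p = 0.314). The mean log2 signal of the 8 tested skeletal muscle markers ran from −0.39 to −0.22 in WT hearts and from −0.14 to 0.15 in the hearts labelled SIRT1 KO, while Myod1, Myf5, Myf6, Pax7 and Actn3 were not above background on enough arrays to be tested. Their part in the Flnc values was not tested.

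Nebl encodes nebulette, the cardiac relative of nebulin that lies along the actin filament at the Z-disc. Its probe (A_52_P525964) gave log2 signals of −0.24, 0.01, −0.12 and −0.29 in the WT hearts and −0.39, −0.41, −0.63 and −0.46 in the hearts labelled SIRT1 KO. All 4 of the latter lay below all WT hearts. The log2 fold change was −0.31 (95% interval −0.52 to −0.11), with a limma adjusted p of 0.0902 that missed the threshold of 0.05.

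Ldb3 encodes cypher (also called ZASP), a PDZ and LIM domain protein that binds α-actinin and protein kinase C. On its brightest probe (A_51_P265348) the log2 signal was 2.89, 2.75, 2.80 and 3.03 in the WT hearts and 2.60, 2.60, 2.64 and 2.67 in the hearts labelled SIRT1 KO. The groups did not overlap, and the second group was the tighter. This came to a log2 fold change of −0.24 (95% interval −0.42 to −0.06, limma adjusted p = 0.13). On the other 2 Ldb3 probes the log2 fold changes were −0.10 (A_51_P265351, limma adjusted p = 0.554) and 0.02 (A_52_P389874, limma adjusted p = 0.954), and the groups overlapped on both. Ldb3 is spliced into long and short forms, and which form a probe reads is not given in the sources used here.

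Myoz2 encodes calsarcin-1, the cardiac myozenin, which tethers the phosphatase calcineurin to the Z-disc. Its probe (A_51_P248638) gave 5.05, 5.13, 5.18 and 5.20 in the WT hearts and 4.83, 4.80, 5.17 and 4.76 in the hearts labelled SIRT1 KO. Replicate 3 of the second group lay among the WT values and its other 3 hearts lay below all of them. Over all hearts the log2 fold change was −0.25 (95% interval −0.48 to −0.02, limma adjusted p = 0.193) and ran from −0.35 to −0.21 with a heart left out. Without replicate 3 of the hearts labelled SIRT1 KO it was −0.35 and passed (limma adjusted p = 0.0315), the only one of the 8 fits in which it did.

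Pdlim5 encodes ENH, a PDZ and LIM domain protein like cypher that brings protein kinases to α-actinin. On its brightest probe (A_52_P149438) the log2 signal was 2.86, 2.31, 2.51 and 2.55 in the WT hearts and 2.40, 2.25, 2.53 and 1.98 in the hearts labelled SIRT1 KO. The ranges overlapped, and the log2 fold change of −0.27 (95% interval −0.60 to 0.06, limma adjusted p = 0.321) did not pass. The fold changes of the other 4 Pdlim5 probes were −0.26, −0.16, −0.07 and 0.16 in the order A_52_P649177, A_52_P662600, A_51_P408881 and A_52_P339246, with limma adjusted p values from 0.296 to 0.77. The only positive one belonged to the dimmest probe.

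Actn2 encodes the α-actinin of heart muscle, the rod that cross-links actin at the Z-disc. Its log2 signal lay from 5.47 to 5.75 in the WT hearts and from 5.64 to 5.88 in the hearts labelled SIRT1 KO. These ranges overlapped, and the log2 fold change was 0.08 (95% interval −0.12 to 0.28, limma adjusted p = 0.647). Tcap encodes telethonin, which caps the ends of a pair of titin molecules, and its log2 signal lay from 5.33 to 5.57 in the WT hearts and from 5.24 to 5.80 in the other group, with a log2 fold change of 0.12 (95% interval −0.17 to 0.42, limma adjusted p = 0.624). Csrp3 encodes muscle LIM protein, a partner of telethonin and α-actinin, and its log2 fold change was −0.05 (95% interval −0.30 to 0.21, limma adjusted p = 0.844). For these 3 genes the WT range and that of the hearts labelled SIRT1 KO overlapped.

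Myot encodes myotilin, which binds α-actinin and filamin C. Its log2 signal lay from −3.53 to −3.15 in WT hearts and from −3.81 to −2.84 in the hearts labelled SIRT1 KO, where the spread was wider. The log2 fold change was 0.13 (95% interval −0.32 to 0.58, limma adjusted p = 0.745). Synpo2l encodes CHAP, an α-actinin-binding relative of synaptopodin, and had a log2 fold change of 0.04 (95% interval −0.23 to 0.31, limma adjusted p = 0.879). None of these intervals shows that the levels were equal.

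**Figure D2:**
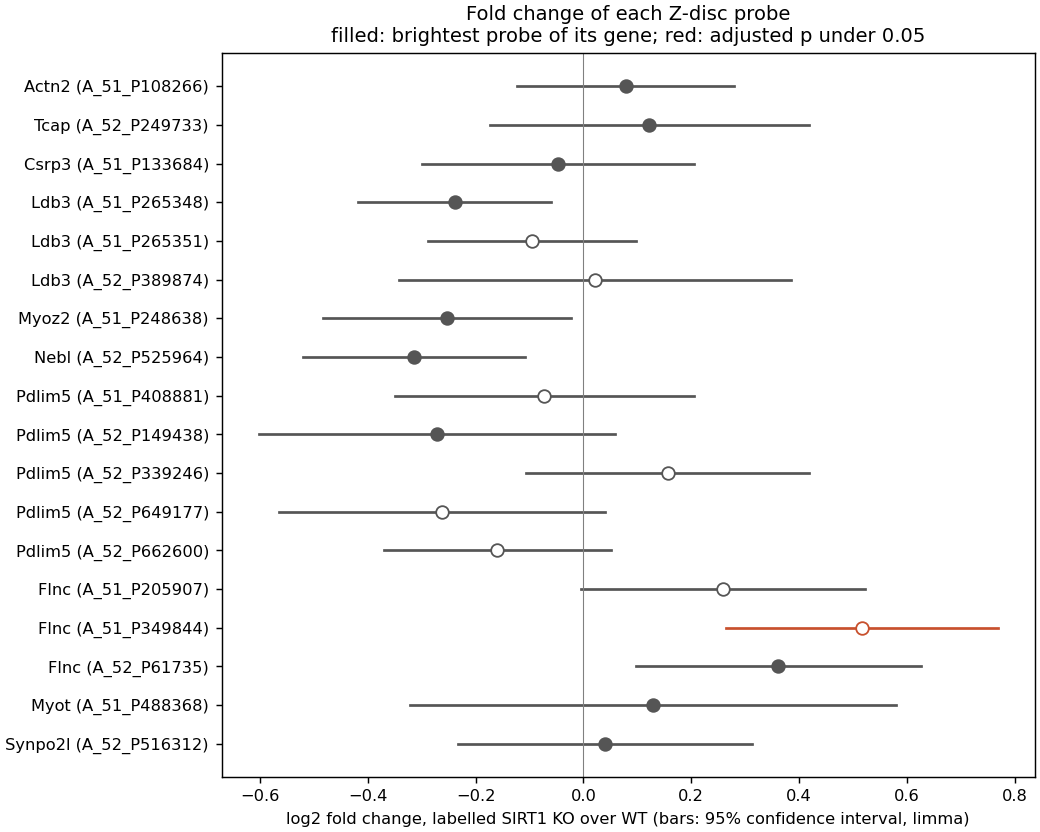
Log2 fold change of each Z-disc probe, hearts labelled SIRT1 KO over WT, with its 95% interval from limma (n = 4 per group). Filled circles are the brightest probe of a gene and open circles its other probes, and the red open circle is Flnc probe A_51_P349844, with an adjusted p under 0.05. The intervals of Nebl, Myoz2 and Ldb3 probe A_51_P265348 lie below zero and those of Flnc probes A_51_P349844 and A_52_P61735 lie above it.

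The direction of several members changed with the way the arrays were scaled. The 75th percentile itself was 934 to 1032 intensity units on the WT arrays and 779 to 900 on the others. The lowest was that of replicate 3 of the hearts labelled SIRT1 KO, and its part in the member values was not tested. Scaling to the median moved the median of all probes to −0.12, and leaving the arrays unscaled moved it to −0.21, with the median of the 18 Z-disc probes at −0.14 and −0.23. The Z-disc probes split into 9 higher and 9 lower under the main scaling, 8 and 10 after quantile normalization, 5 and 13 after median scaling, and 3 and 15 on unscaled arrays. Among all probes past the threshold, 81.2% were higher under the main scaling, 63.9% after quantile normalization, 38.7% after median scaling and 10.1% on unscaled arrays. The brightest probe of Flnc was higher, and those of Nebl, Ldb3, Myoz2, Pdlim5 and Csrp3 lower, under each of these scalings and with normexp background correction. Actn2, Tcap and Synpo2l turned from higher to lower with the median and with no scaling, and Myot with no scaling.

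**Figure D3:**
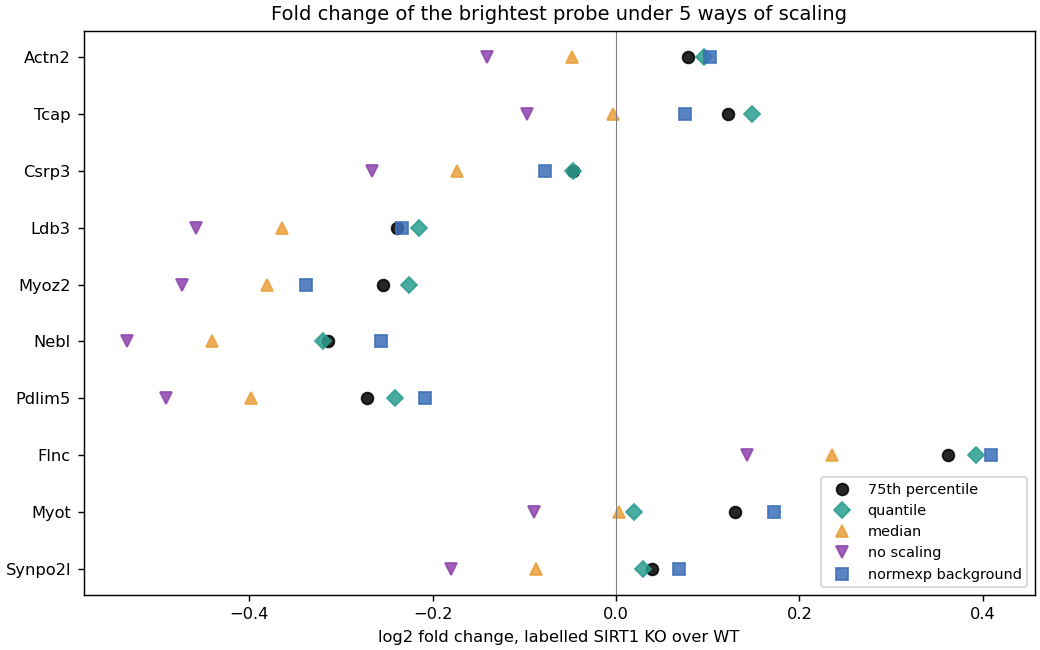
Log2 fold change of the brightest probe of each Z-disc gene, hearts labelled SIRT1 KO over WT, under 5 ways of scaling or background correction. Flnc stays to the right of zero and Ldb3, Myoz2, Nebl, Pdlim5 and Csrp3 to the left, whereas Actn2 (0.08 with the 75th percentile, −0.14 with no scaling), Tcap, Myot and Synpo2l lie on both sides.

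To leave the scaling between arrays out of the comparison, each member was also set against other cardiomyocyte genes of the same heart. The reference was the mean log2 signal of the brightest probes of the 8 cardiomyocyte markers, which averaged 6.71 ± 0.07 (SD, n = 4) for WT and 6.81 ± 0.09 (SD, n = 4) for SIRT1 KO labels (difference 0.10, exact two-sided permutation p = 0.171). Relative to it, Ldb3, Myoz2, Nebl and Pdlim5 were lower in all 4 hearts labelled SIRT1 KO than in all 4 WT hearts. The groups failed to overlap for 4 of the 10 members and for 18.3% of all genes compared in this way. Differences were tested by exact two-sided permutation of the 8 hearts, which cannot give a p under 0.0286.

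For Nebl the log2 level relative to the reference was −6.95, −6.62, −6.81 and −7.09 in WT hearts and −7.26, −7.21, −7.52 and −7.15 in the hearts labelled SIRT1 KO, a difference of −0.42. For Pdlim5 it was −3.85, −4.32, −4.18 and −4.25 in WT hearts and −4.48, −4.55, −4.36 and −4.71 in the other group, a difference of −0.37. For Myoz2 the relative level was −1.66, −1.50, −1.51 and −1.61 in WT hearts and −2.05, −1.998, −1.72 and −1.94 in the hearts labelled SIRT1 KO, a difference of −0.36. For Nebl, Pdlim5 and Myoz2 the groups were narrowly apart, by the gap between a single WT heart and a single heart labelled SIRT1 KO. For Ldb3 it was −3.82, −3.88, −3.89 and −3.78 in WT hearts and −4.28, −4.20, −4.25 and −4.02 in the hearts labelled SIRT1 KO, a difference of −0.34. Each of the 4 genes reached the smallest exact permutation p of 0.0286, and adjusted over all 13528 genes with complete values this p was 0.156, past no threshold.

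Flnc lay in the other direction. Its relative level was −2.65, −2.54, −2.68 and −2.46 in WT hearts and −2.13, −2.29, −2.60 and −2.29 in the hearts labelled SIRT1 KO, a difference of 0.26 (exact permutation p = 0.0857). Replicate 3 of the hearts labelled SIRT1 KO lay among the WT values. The differences of the other 5 members were −0.02 for Actn2, 0.02 for Tcap, −0.15 for Csrp3, 0.03 for Myot and −0.06 for Synpo2l, with exact permutation p values from 0.314 to 0.886. Without replicate 3 of the hearts labelled SIRT1 KO, the Flnc groups also did not overlap. Leaving Tnnt2 out of the reference removed Myoz2 from the 4 members, and leaving out any other reference gene removed none. With normexp background correction 3 members did not overlap, Ldb3, Myoz2 and Nebl, and Pdlim5 did.

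**Figure D4:**
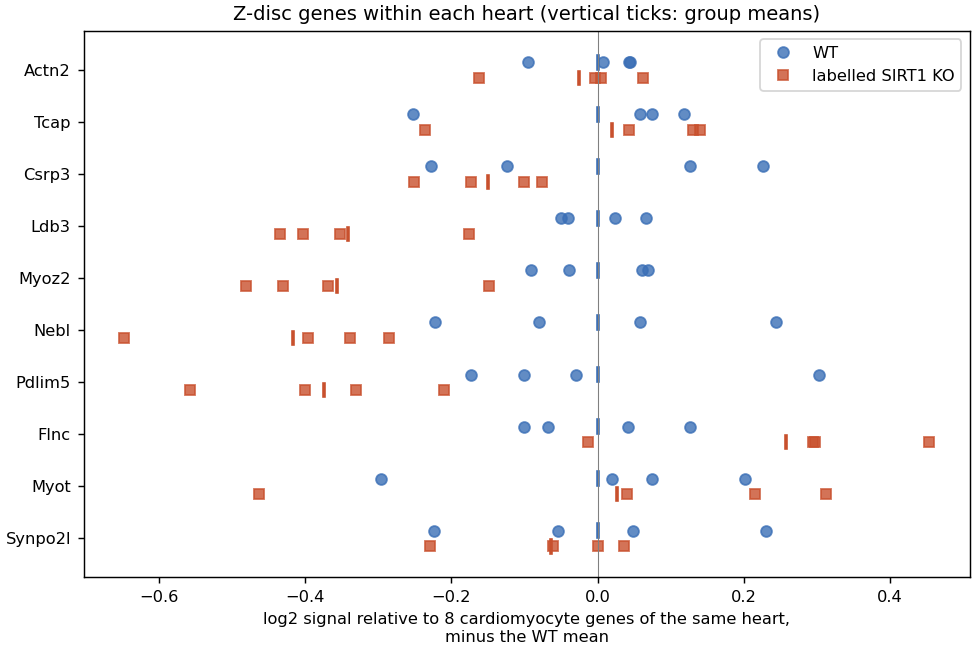
Brightest probe of each Z-disc gene relative to the mean of 8 cardiomyocyte genes in the same heart, as log2 and minus the WT mean (circles, WT hearts; squares, hearts labelled SIRT1 KO; ticks, group means). The squares of Ldb3, Myoz2, Nebl and Pdlim5 lie to the left of all circles in their rows, with mean differences from −0.42 to −0.34.

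The probes of a gene were compared within each array in the same way, for 8 pairs made of the brightest probe and each other probe of Ldb3, Pdlim5 and Flnc. Groups failed to overlap in 0 of the 8 pairs and in 10.6% of all such pairs on the array. The largest difference was −0.43, between the brightest and the dimmest Pdlim5 probes (exact permutation p = 0.114), followed by −0.26 between the Ldb3 probes A_51_P265348 and A_52_P389874 (exact permutation p = 0.143). For Flnc the brightest probe differed from the others by 0.10 and −0.15 (exact permutation p of 0.343 and 0.314). The smallest exact permutation p among the 8 was 0.0857, which was 0.384 when adjusted over the 6592 pairs with complete values.

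The wider Z-disc was examined with 58 further genes, 54 of them tested on 92 probes. Actn3 and Ankrd2 were not above background on enough arrays, and no probe was named for Myoz3 or Palld. On the brightest probe, 24 of the 54 had a higher and 30 a lower mean, with a median log2 fold change of −0.03. Flna and Trim55 rose and Neb fell past the threshold, 3 of 54 genes against 4.6% of all genes. With any probe of the gene counted, Synpo and Plec also passed, which made 5 of 54 against 5.76% of all genes. The share on the brightest probe lay near that of all genes. With any probe counted, the share lay above that of all genes, a difference that was not tested.

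Trim55 encodes MuRF2, a ubiquitin ligase that binds titin. Its log2 signal was 1.27, 1.65, 1.23 and 1.75 in the WT hearts and 3.57, 3.66, 2.48 and 2.82 in the hearts labelled SIRT1 KO. The groups lay far apart, a 3.15-fold rise, or 1.66 on the log2 scale (standard error 0.26, limma adjusted p = 0.00942). It passed in all 8 fits that left out a heart, but not with the methods' analysis of variance (adjusted p = 0.0635). In the limma fit Trim55 was the only one of 12 protein quality control genes to pass, and the lowest of them was Hspb8, a small heat shock protein, at −0.28 (limma adjusted p = 0.187).

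Among relatives of the members, 18 of 21 were tested. Flna, the filamin of non-muscle cells, gave 5.49, 5.40, 5.46 and 5.46 in WT hearts and 5.83, 5.94, 5.74 and 5.67 in the hearts labelled SIRT1 KO. The groups did not overlap, and the log2 fold change was 0.34 (standard error 0.08, limma adjusted p = 0.0415). It passed in 2 of the 8 fits that left out a heart, those without replicate 3 or 4 of the hearts labelled SIRT1 KO. It did not pass with median scaling, no scaling, no filter on dim probes or the methods' analysis of variance (adjusted p from 0.0586 to 0.394, log2 fold changes from 0.12 to 0.34). Its dimmest probe (A_51_P368160) rose by 0.81 (limma adjusted p = 0.0159), and passed in all 8 but not with the methods' analysis of variance (adjusted p = 0.0688), whereas the remaining probe (A_52_P84384) gave 0.06 (limma adjusted p = 0.675). The brightest Flnc and Flna probes thus had log2 fold changes of 0.36 and 0.34, with standard errors of 0.12 and 0.08.

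Neb encodes nebulin, the long actin ruler of skeletal muscle and the relative of nebulette. Its brighter probe (A_51_P495331) gave −3.35, −3.61, −3.75 and −3.76 in WT hearts and −4.49, −4.32, −4.62 and −4.30 in the hearts labelled SIRT1 KO. All hearts of the second group were lower. The log2 fold change was −0.81 (standard error 0.12, limma adjusted p = 0.00602), and that of the other probe (A_51_P218535) was −0.57 (limma adjusted p = 0.0123). Both probes are dim, and with normexp background correction they gave −0.21 and −0.075 and did not pass. Nebl and Neb were thus both lower on average, the first without passing. The Synpo probe A_52_P62986 rose by 0.89 (limma adjusted p = 0.0177, under 0.05 in 5 of the 8 fits without a heart, and 0.0756 with the methods' analysis of variance), while the brightest Synpo probe gave 0.15 (limma adjusted p = 0.578) and the dimmest (A_51_P317376) −0.22 (limma adjusted p = 0.436).

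The other role groups held no call on the brightest probe. The 3 tested genes of the actin capping protein, which closes the barbed ends of thin filaments at the Z-disc, ran from −0.13 for Capza1 to 0.09 for Capzb. Ttn, which encodes the giant spring protein titin, had a log2 fold change of 0.47 (limma adjusted p = 0.141). Among 5 genes that link the Z-disc to intermediate filaments, the range was from −0.14 for Sync to 0.46 for Plec, and the dimmest Plec probe (A_52_P380502) rose by 0.76 (limma adjusted p = 0.0497), which passed in 2 of the 8 fits without a heart and did not pass with median scaling, no scaling, quantile normalization, no filter on dim probes or the methods' analysis of variance (adjusted p from 0.0561 to 0.133). Of the signaling genes, 13 of 14 were tested. They ran from −0.58 for Xirp2, an actin-binding repeat protein (limma adjusted p = 0.119), to 0.21 for Prkce, a protein kinase C (limma adjusted p = 0.211). On the 2 Xirp2 probes and on Prkce probes A_51_P352782 and A_52_P375455 the groups did not overlap. That held for 13 of the 92 tested probes of these further Z-disc genes and for 13.7% of all probes. The fold change of the other Xirp2 probe (A_52_P744179) was −0.53.

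**Figure D5:**
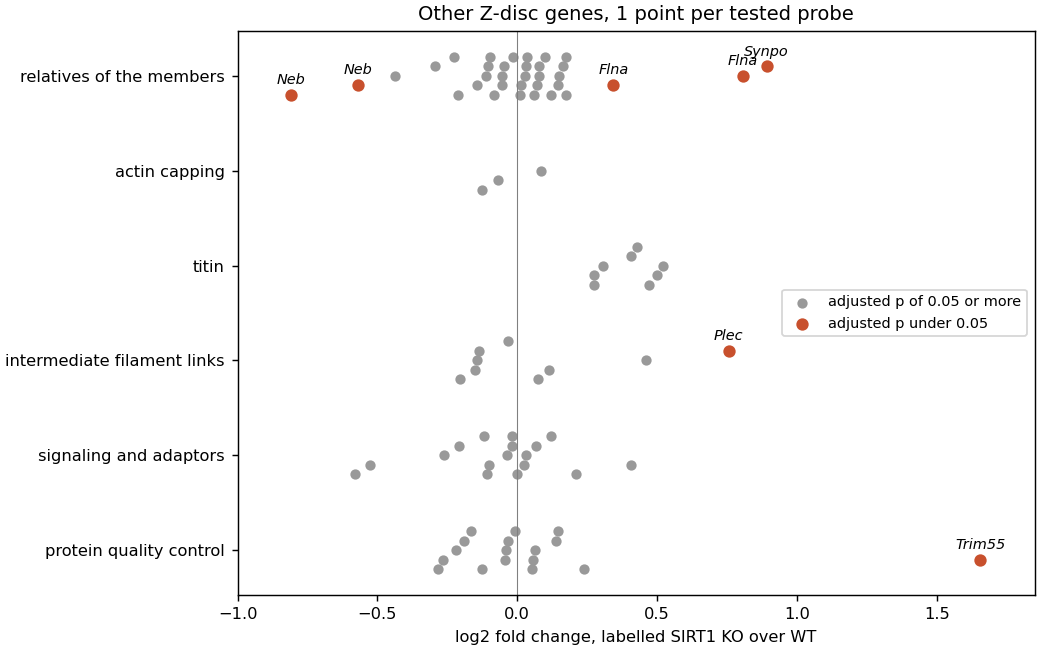
Log2 fold change of tested probes of other Z-disc genes, hearts labelled SIRT1 KO over WT, by role, 1 point per probe. Titin is the only gene drawn of its role group. Red points have a limma adjusted p under 0.05 and are named. Neb lies to the left at −0.81 and −0.57 and Trim55 farthest to the right at 1.66.

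For the members below, the gene with the most similar pattern over the 8 arrays was found by the smallest root mean square difference of centered log2 signals among 13526 genes. Actn2 was nearest to Oplah (0.033), Tcap to Grn (0.0429), Ldb3 to Mvd (0.0359) and Myoz2 to Cibar1 (0.0382). Nebl was nearest to Oaf (0.0616), Pdlim5 to Ccdc189 (0.0645), Flnc to Abcg4 (0.0692), Myot to Kcnab2 (0.0535) and Synpo2l to Clk2 (0.0466). The distances of Flnc, Pdlim5 and Nebl were the longest of these. Among the members themselves, the closest pair was Actn2 and Synpo2l at 0.0882, and Ldb3 and Myoz2 were nearest to each other at 0.14.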

How the data were processed

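RNA of 4 WT and 4 SIRT1 KO hearts was measured on one-color Agilent mouse arrays, grouped by the genotype in the labels. The authors deposited the spot intensity written by Agilent Feature Extraction with its one-color defaults, background-subtracted and not scaled between arrays (version 12.0.0.7 per the file headers, 12 per the labels). Their series table holds the same intensity for 100% of spots, and 0 columns of unknown samples were found.

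Control and outlier spots were left out, spots of a probe were averaged, and log2 minus the array's 75th percentile was taken from the deposited intensity. Accessions were matched to RefSeq names (GRCm38.p6), which named 28223 of 41174 probes (68.5%). Probes that 4 or more of the 8 arrays marked as well above background were tested with limma 3.58.1 in R 4.3.3 (lmFit, eBayes), adjusted by Benjamini-Hochberg over all 25615 and called at 0.05. A gene's brightest probe has the highest mean over the arrays. Within-heart comparisons used the exact two-sided permutation test in scipy 1.17.1 and, because the members were chosen with results known, were adjusted over all genes or probe pairs on the array. Python 3.11.15, numpy 2.4.6, pandas 2.3.3 and matplotlib 3.10.9 were used.

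The members, gene lists and tests were chosen with earlier results of these data known. The text names all members and Sirt1, other Z-disc genes with a probe past the threshold or at the end of their role group, and each member's nearest gene in pattern, apart from 2 genes that are not reported here. The fit was tested on simulated data for SIRT1 KO against WT (25535 probes), in which it recovered 86.5% of the 200 that were moved by 1 log2 unit. Of its calls there, 4.945% were false. The member probes had log2 fold changes from −0.31 to 0.52, and recovery of changes that small was not simulated. Nothing in the sources used here says that hearts came from separate litters, so p-values measure the spread between these hearts.

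Alternatives covered scaling, background correction (normexp, offset 50, on the median signal because the files hold no mean signal, chosen after seeing the data), the filter, array weights, the methods' analysis of variance, the replicate block, the threshold, and each heart left out. No slide block could be fitted, since each slide holds 1 genotype.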

Additional observations from a re-analysis of the deposited data

Results flagged for a closer look

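A pair of hearts stood apart from the other hearts of their group on a Z-disc probe, by Dixon's test of the gap to the nearest value over the range of the group. For Tcap, WT replicate 4 had a log2 signal of 5.33 and the other WT hearts lay from 5.53 to 5.57 (ratio 0.844). For Myoz2, replicate 3 of the hearts labelled SIRT1 KO had 5.17 and the other hearts of that group lay from 4.76 to 4.83 (ratio 0.83). Both ratios pass the 95% critical value for 4 values. Chance passes it in about 1 in 20 groups, and 36 groups were tested.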

How the results depend on the processing

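Of 459 comparisons of a single probe with an alternative setting, 371 kept direction and side of the threshold, 55 lost the threshold, 13 gained it and 20 changed sign. The count of Z-disc probes past the threshold, 1 in the report, was 2 at an adjusted p of 0.1, 2 with median scaling (Ldb3 and Nebl), 7 with no scaling, 4 with normexp, and 0 with quantile normalization, the methods' analysis of variance, no filter on dim probes or the replicate block. It ran from 0 to 2 with a heart left out. Over all probes the count of 1258 became 2280 at an adjusted p of 0.1, 2115 with array weights, 6352 with no scaling, 2380 with normexp and 517 with the analysis of variance, and ran from 647 to 1793 with a heart left out. The median of the Z-disc probes was −0.14 with median scaling and −0.23 with no scaling. Other Z-disc genes past the threshold, 3 in the report, numbered 5 with any probe, 1 with the analysis of variance and 11 with no scaling. The pairs of probes that did not overlap, 0 in the report, numbered 2 with normexp, and 2 differed in the same direction in all 4 same-numbered pairs (replicate block), and from 0 to 1 did not overlap with a heart left out. The cause of these shifts was not tested.

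Signs changed as follows. With median scaling Actn2 gave −0.048, Tcap −0.0038, Ldb3 probe A_52_P389874 −0.10 and Synpo2l −0.087. With no scaling Actn2 gave −0.14, Tcap −0.097, Ldb3 probe A_52_P389874 −0.20, Pdlim5 probe A_52_P339246 −0.063, Myot −0.090 and Synpo2l −0.18. Quantile normalization took Pdlim5 probe A_52_P339246 to −0.0088, and array weights took Csrp3 to 0.0049. With a heart left out, the range was −0.094 to 0.027 for Csrp3, −0.10 to 0.11 for Ldb3 probe A_52_P389874, −0.14 to 0.011 for Pdlim5 probe A_51_P408881 and −0.061 to 0.12 for Synpo2l.

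The replicate numbers name the array's place on its slide and pair no hearts in the labels. Same-numbered arrays correlated by 0.204, 0.207, 0.0562 and 0.141 in their deviations, and each WT array correlated best with its own number. The replicate block gave 1167 calls over all probes and left 2 other Z-disc genes past the threshold, Neb and Trim55, with Flna at an adjusted p of 0.0799, the brighter Sirt1 probe at 0.0664 and Plec probe A_52_P380502 at 0.0985. Relative to the cardiomyocyte reference, 5 members differed in the same direction in all 4 same-numbered pairs, Flnc beside the 4 of the report. The filter and the small number of arrays limit what can be seen, and dim probes such as those of Neb depend on the background correction.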
